A study of Mus musculus with 12 samples.

Results

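The 10 genes studied here, of 32285 measured, encode cytokine receptor subunits and were followed in single CD8 T cells of NOD/ShiLtJ (NOD) mice, a strain that develops autoimmune diabetes. The members were chosen by name: Il7r, Il2ra, Il2rb, Il2rg, Il21r, Il12rb2, Il18r1, Il18rap, Ifngr1 and Ifngr2, and all 10 were found in the data. Untreated female mice aged 10 to 15 wk gave 3 groups of cells, each sequenced in 2 rounds (n = 2 libraries a group), with islets and spleens pooled from 10 mice in each round. Islet IGRP+ and spleen IGRP+ cells were sorted as CD45.1+ Lin- CD8+ cells that bound a Kd tetramer loaded with NRP-V7, a mimotope of the IGRP peptide that is a major target of CD8 T cells in this strain, and islet IGRP- cells were islet CD8+ cells that did not bind it. The IGRP- group can hold T cells of any other specificity, and no spleen IGRP- group was studied here, so islet IGRP- and spleen IGRP+ cells differ in both tissue and tetramer binding. The spleen cells were also enriched for CD8 T cells with beads before the sort and, by the study's account, gated on CD44, a marker of antigen-experienced cells, so tissue cannot be told apart from these steps in either comparison with the spleen. A cell was kept with under 5% of its UMIs (unique molecular identifiers, each standing for 1 captured transcript) from mitochondrial genes and with at least 200 genes, but no more than 3500 in an islet cell and 2000 in a spleen cell.

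Cytokine receptors are built from subunits that are shared between cytokines. The common γ chain encoded by Il2rg pairs with the IL-7 receptor α chain (Il7r), with the IL-21 receptor (Il21r) and with the IL-2 and IL-15 receptor β chain (Il2rb), to which the α chain Il2ra adds high affinity for IL-2. In CD8 T cells IL-7 sustains naive and memory cells, IL-2 and IL-15 drive expansion and effector differentiation, and IL-21 helps to sustain responses to persisting antigen. Il12rb2 encodes the signaling subunit of the IL-12 receptor, Il18r1 and Il18rap encode the ligand-binding and accessory chains of the IL-18 receptor, and both cytokines promote the making of IFN-γ. Ifngr1 and Ifngr2 encode the ligand-binding and the signal-transducing chain of the IFN-γ receptor, and loss of the second chain is a known way in which T cells become unresponsive to IFN-γ.

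The kept libraries held 6429 and 8932 islet IGRP- cells, 1204 and 1598 islet IGRP+ cells, and 3524 and 2430 spleen IGRP+ cells in Rounds 1 and 2. Their totals were between 5880696 and 40469961 UMIs, with a median of 3793 to 4216.5 UMIs per islet cell and of 2590 to 2764.5 UMIs per spleen cell. The labelled cell type held, since the 5 CD8 T-cell markers Cd3d, Cd3e, Cd3g, Cd8a and Cd8b1 summed to between 4042 and 5616 CPM (the UMIs of a gene per 1000000 UMIs of its library) and Cd4 reached at most 0.173 CPM. Summed exocrine pancreas markers were 144 and 486 CPM in islet IGRP-, 63.3 and 179 CPM in islet IGRP+ and 5.62 and 6.51 CPM in spleen libraries, and all 12 of them were seen in every islet library. Of these markers 10 were at 0 in both spleen libraries. The part of this RNA in the differences between groups was not tested. Only 6 cells drew at least 10% of their UMIs from exocrine genes, so no cell type that lacks the receptors was at hand to give a background share of detection. Any pair of libraries shared at most 1.03% of the barcodes of the smaller one. Cells of a group come from pooled mice, so no p-value measures the spread between single animals. In fits without a block p-values measure the spread between libraries or sums of cells. In fits with the round or library as a block they measure the spread left after the block is taken out.

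**Figure D1:**
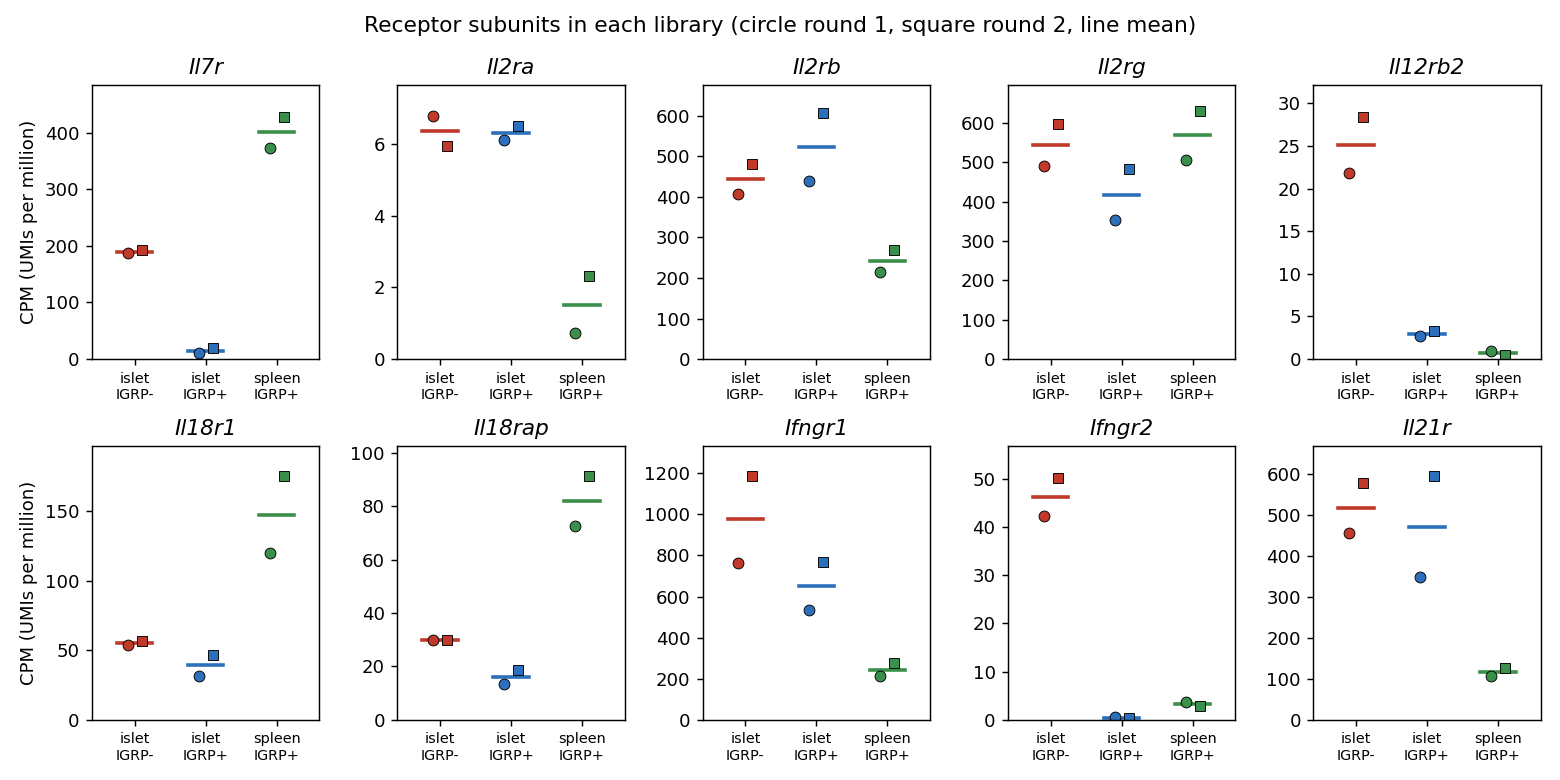
Level of each receptor subunit in the 6 libraries, in CPM on linear axes that start at 0. Circles are Round 1, squares are Round 2 and lines are the means of the 2 libraries; Il7r, Il12rb2 and Ifngr2 in islet IGRP+ libraries (blue) sit far under those in islet IGRP- libraries (red), while Il21r overlaps between these groups.

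Islet IGRP+ cells held less Il7r, Il12rb2 and Ifngr2 transcript than islet IGRP- cells, and these were the 3 members of 10 that passed the test between the tetramer classes of islet cells. Among all 11277 genes tested, 1.19% were called in this comparison and 1.04% were called lower. No member was called higher, against 0.151% of all genes. The median log2 fold change of the members was -0.56, beside -0.01 over all genes. Against the spleen, islet IGRP+ cells held more Il2ra, Il2rb, Il21r, Il12rb2 and Ifngr1 and less Il7r, Il18r1, Il18rap and Ifngr2, so that 9 of 10 members were called where 26.6% of all genes were (13.7% higher and 12.9% lower). In islet IGRP- cells against the spleen, 6 members were called higher and 3 lower, where 22.4% of all genes were called (12.2% higher and 10.2% lower). Each pair of these comparisons shares the libraries of 1 group, so they are not independent. The members were chosen with earlier results of these data known. Counts of called members beside the shares of all genes, here and below, are therefore descriptions and not tests.

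Il7r, the IL-7 receptor α chain (chromosome 15, bases 9505788 to 9530176, minus strand, GRCm38), was read at 187 and 192 CPM in islet IGRP- libraries, at 9.86 and 19.05 CPM in islet IGRP+ libraries and at 374 and 427 CPM in spleen libraries. The 3 groups did not overlap, and the spleen was highest. The mean in islet IGRP- cells (189 ± 3.64 CPM, SD, n = 2) was 13.1-fold that in islet IGRP+ cells (14.5 ± 6.49 CPM, SD, n = 2), and the mean in the spleen (400.4 ± 38.0 CPM, SD, n = 2) was 27.7-fold that in islet IGRP+ cells. The fitted log2 fold change of islet IGRP+ against islet IGRP- cells was -3.74 (SE 0.27, edgeR adjusted p = 0.0122). Against the spleen it was -4.72 (SE 0.28, edgeR adjusted p = 0.00132) in islet IGRP+ cells and -0.98 (SE 0.24, edgeR adjusted p = 0.0350) in islet IGRP- cells.

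Il2ra, the IL-2 receptor α chain, was rare everywhere. It was read at 6.79 and 5.96 CPM in islet IGRP-, at 6.12 and 6.52 CPM in islet IGRP+ and at 0.729 and 2.32 CPM in spleen libraries, the last resting on 7 and 16 UMIs. The islet groups overlapped (log2 fold change -0.02, SE 0.38, edgeR adjusted p = 0.983). Both lay over the spleen, with a log2 fold change of 2.23 (SE 0.45, edgeR adjusted p = 0.0185) in islet IGRP+ cells and 2.25 (SE 0.44, edgeR adjusted p = 0.0196) in islet IGRP- cells.

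Il2rb, the β chain shared by the IL-2 and IL-15 receptors, stood at 407 and 482 CPM in islet IGRP-, 439 and 607 CPM in islet IGRP+ and 215 and 270.0 CPM in spleen libraries. The islet groups overlapped (log2 fold change 0.22, SE 0.18, edgeR adjusted p = 0.549) and both lay over the spleen. The log2 fold change over the spleen was 1.20 (SE 0.18, edgeR adjusted p = 0.00799) in islet IGRP+ cells and 0.98 (SE 0.18, edgeR adjusted p = 0.0163) in islet IGRP- cells. Il2rg, the common γ chain, varied least between the groups: it was read at 492 and 598 CPM in islet IGRP-, 354 and 482 CPM in islet IGRP+ and 506 and 631 CPM in spleen libraries. None of its 3 differences passed the test without a round term, with log2 fold changes of -0.39 (SE 0.18, edgeR adjusted p = 0.330) between the islet groups, -0.35 (SE 0.18, edgeR adjusted p = 0.204) in islet IGRP+ cells against the spleen and 0.04 (SE 0.18, edgeR adjusted p = 0.902) in islet IGRP- cells against the spleen.

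Il21r, the IL-21 receptor, was higher in islet cells of both tetramer classes than in spleen IGRP+ cells. Its level was 455 and 576 CPM in islet IGRP-, 347 and 594 CPM in islet IGRP+ and 107 and 125 CPM in spleen libraries. The islet groups overlapped (log2 fold change -0.16, SE 0.23, edgeR adjusted p = 0.755) and every islet library lay over both spleen libraries. The log2 fold change over the spleen was 2.09 (SE 0.24, edgeR adjusted p = 0.00425) in islet IGRP+ cells and 2.25 (SE 0.24, edgeR adjusted p = 0.00480) in islet IGRP- cells.

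Il12rb2, the signaling subunit of the IL-12 receptor (chromosome 6, bases 67291318 to 67376188, minus strand, GRCm38), was highest in islet IGRP- cells. It was read at 21.9 and 28.4 CPM there, at 2.72 and 3.26 CPM in islet IGRP+ libraries and at 0.937 and 0.434 CPM in spleen libraries, the last resting on 9 and 3 UMIs. No groups overlapped. The log2 fold change of islet IGRP+ against islet IGRP- cells was -3.07 (SE 0.31, edgeR adjusted p = 0.0231). It was 5.19 (SE 0.37, edgeR adjusted p = 0.00283) in islet IGRP- cells and 2.12 (SE 0.41, edgeR adjusted p = 0.0162) in islet IGRP+ cells against the spleen. In Round 2, with 3 UMIs in the spleen, the ratio of islet IGRP- to spleen cells was 65.4 (95% counting interval 22.3 to 317).

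Il18r1 and Il18rap, both chains of the IL-18 receptor, are neighbours on chromosome 1 (bases 40465552 to 40500854 and 40515362 to 40551705, plus strand, GRCm38), and both were highest in the spleen. Il18r1 was read at 120.0 and 175 CPM in spleen, 53.9 and 57.0 CPM in islet IGRP- and 31.3 and 46.9 CPM in islet IGRP+ libraries. Il18rap was read at 72.5 and 91.2 CPM in spleen, 30.0 and 29.8 CPM in islet IGRP- and 13.4 and 18.8 CPM in islet IGRP+ libraries. Both genes thus followed the same order with no overlap between groups. Against the spleen, the log2 fold change in islet IGRP+ cells was -1.82 (SE 0.19, edgeR adjusted p = 0.00334) for Il18r1 and -2.25 (SE 0.16, edgeR adjusted p = 0.00155) for Il18rap. The islet IGRP- values were -1.30 (SE 0.18, edgeR adjusted p = 0.00866) and -1.34 (SE 0.15, edgeR adjusted p = 0.00552). The difference between the islet groups missed the threshold without a round term, with -0.52 (SE 0.18, edgeR adjusted p = 0.228) for Il18r1 and -0.91 (SE 0.16, edgeR adjusted p = 0.0688) for Il18rap.

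The chains of the IFN-γ receptor had different orders of levels over the groups. Ifngr1, the ligand-binding chain, was read at 764 and 1187 CPM in islet IGRP-, 535 and 768 CPM in islet IGRP+ and 213 and 276 CPM in spleen libraries. The islet groups overlapped across rounds, while islet IGRP+ was the lower in both rounds. The difference missed the threshold without a round term (log2 fold change -0.59, SE 0.24, edgeR adjusted p = 0.289) and passed it with one (-0.58, edgeR adjusted p = 0.00505). The spleen was lowest, with a log2 fold change over it of 1.502 (SE 0.25, edgeR adjusted p = 0.0105) in islet IGRP+ cells and 2.09 (SE 0.25, edgeR adjusted p = 0.00634) in islet IGRP- cells. Ifngr2, the signal-transducing chain (chromosome 16, bases 91547072 to 91565623, plus strand, GRCm38), was read at 42.3 and 50.2 CPM in islet IGRP- libraries, from 1234 and 2032 UMIs. The islet IGRP+ libraries held 3 UMIs each (0.510 and 0.376 CPM), and the spleen libraries held 35 and 20 UMIs (3.64 and 2.90 CPM).

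The ratio of Ifngr2 in islet IGRP- to islet IGRP+ cells was 83.0 in Round 1 (95% counting interval 28.3 to 403) and 134 in Round 2 (45.6 to 648). The fitted log2 fold change was -6.73 (SE 0.34, edgeR adjusted p = 0.00647). It was 3.88 (SE 0.26, edgeR adjusted p = 0.00264) in islet IGRP- cells against the spleen and -2.84 (SE 0.39, edgeR adjusted p = 0.00637) in islet IGRP+ cells against the spleen. Islet IGRP+ cells thus lay over the spleen for Ifngr1 and under it for Ifngr2 when all cells were counted. In clones found in both tissues the Ifngr2 levels overlapped, with 0 and 2 UMIs in islet IGRP+ cells and 1 UMI in each spleen library, so nearly all spleen Ifngr2 UMIs came from other cells. Intervals of counts given here cover counting error only and take UMIs as independent. The 3 islet IGRP+ UMIs of Round 1 lay in 1 cell.

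**Figure D2:**
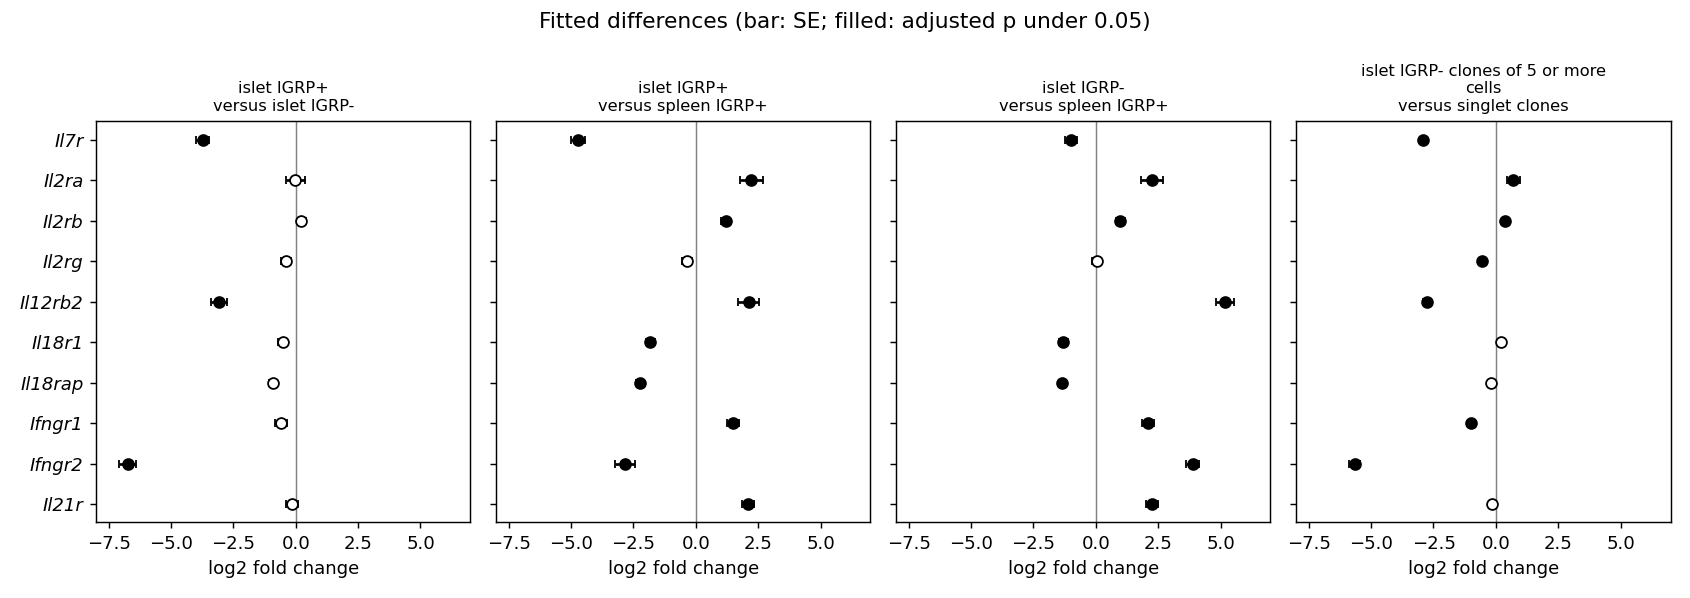
Fitted log2 fold changes of the 10 receptor subunits in 4 comparisons, each on the same axis, with bars for 1 SE and filled points for an edgeR adjusted p under 0.05. Ifngr2 is the lowest point between the islet groups and by clone size, and Il12rb2 the highest in islet IGRP- cells against the spleen; Il2rg is open in every panel but that of clone size.

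Because the rounds are pools of mice that gave all 3 groups, the fit was also made with the round as a block. The rounds were also sequenced with different kits and read lengths, so the block stands for mice and sequencing together. With this block 7 members were called lower in islet IGRP+ than in islet IGRP- cells. Of all 11277 genes tested, 1818 were called lower and 1624 higher with it, so 3442 genes in place of 134 were called. The members added were Il18rap (log2 fold change -0.90, edgeR adjusted p = 0.000462), Ifngr1 (-0.58, edgeR adjusted p = 0.00505), Il18r1 (-0.53, edgeR adjusted p = 0.00869) and Il2rg (-0.39, edgeR adjusted p = 0.0228). Il2rg was also called lower in islet IGRP+ cells than in the spleen (-0.36, edgeR adjusted p = 0.0209).

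Several calls in the fit without a round term were lost when 1 library was left out, where a group left with 1 library was assumed to vary like the others. Calls over all genes fell in each of these fits too, so a lost call does not set a member apart from other genes. Between the islet groups, Il7r, Ifngr2 and Il12rb2 all lost their calls without either islet IGRP+ library. Without islet IGRP- Round 1 the call stayed with Ifngr2, since Il7r had an adjusted p of 0.0619 and Il12rb2 one of 0.0979, and without islet IGRP- Round 2 Il12rb2 had an adjusted p of 0.117. In islet IGRP+ cells against the spleen, Il2ra lost its call without either islet library or spleen Round 1 (edgeR adjusted p of 0.0534 to 0.0632). Il12rb2 did so without either islet library or spleen Round 2 (0.0510 to 0.0590), and Il2rb and Ifngr1 without either spleen library (0.0600 to 0.0756). In islet IGRP- cells against the spleen Il12rb2, Il18rap, Ifngr2 and Il21r kept their calls in all 4 cases, while Il7r and Il2rb lost theirs in all 4. Il2ra lost its call without either islet library or spleen Round 1. Il18r1 did so without either islet library or spleen Round 2, and Ifngr1 without either spleen library. The directions of all these calls stayed the same. With the limit of 200 to 2000 genes set on both tissues, Il2ra (log2 fold change 1.13, edgeR adjusted p = 0.186) and Il12rb2 (1.38, edgeR adjusted p = 0.0953) lost their calls in islet IGRP+ cells against the spleen. The same limit ended the calls of Il7r (-0.50, edgeR adjusted p = 0.0739) and Il2ra (1.55, edgeR adjusted p = 0.0598) in islet IGRP- cells against the spleen.

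The share of cells with at least 1 UMI showed how these levels were spread over cells. Cells were thinned to 1000 UMIs, because spleen cells were shallower. Cells with fewer UMIs were left out of the thinned shares. They were 93 and 100 islet IGRP-, 26 and 43 islet IGRP+ and 72 and 57 spleen cells. After thinning, Il7r was found in 16.7% and 16.6% of islet IGRP- cells, in 1.19% and 1.16% of islet IGRP+ cells and in 22.9% and 26.0% of spleen cells in Rounds 1 and 2. The unthinned shares were 36.1% and 38.4%, 3.16% and 4.94%, and 41.3% and 44.6%. Ifngr2 was found after thinning in 4.77% and 5.53% of islet IGRP- cells, and before thinning in 13.6% and 16.0% of them. In islet IGRP+ cells it was seen unthinned in 0.0831% of Round 1 cells (95% Clopper-Pearson interval 0.00210 to 0.462) and in 0.188% of Round 2 cells (0.0387 to 0.548). All 3 islet IGRP+ UMIs of Round 1 lay in 1 cell. A further filter left out cells with exocrine, myeloid or B-cell markers at set limits or with no CD8 T-cell marker. Under it the thinned Round 1 share went from 0.0849% to 0%. Whether these UMIs are stray RNA was not tested, and no share of Ifngr2-positive cells can be read from them.

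The abundant subunits were found in a wide share of cells at the same thinned depth. Ifngr1 was found in 50.1% and 63.3% of islet IGRP- cells, 39.6% and 46.8% of islet IGRP+ cells and 20.05% and 22.4% of spleen cells. Il21r was found in 33.8% and 41.8%, 29.3% and 43.6%, and 9.99% and 10.8% of these cells, and Il2rb in 30.5% and 35.4%, 35.7% and 43.2%, and 18.5% and 23.6%. The unthinned shares of Il21r were 71.4% and 77.9%, 65.1% and 79.5%, and 24.1% and 28.5%. Il12rb2 was found after thinning in 2.45% and 2.73% of islet IGRP- cells but in at most 0.255% of the cells of any other library.

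Partner chains were also read cell by cell. Ifngr1 was found in 59.3% and 69.7% of thinned islet IGRP- cells with an Ifngr2 UMI and in 49.7% and 62.9% of those without one. Il18r1 was found in 11.5% and 8.37% of islet IGRP- cells with an Il18rap UMI and in 4.50% and 5.38% of those without one, over 165 and 227 cells with Il18rap. In the spleen the same shares for Il18r1 were 11.8% and 15.0% with Il18rap and 11.2% and 15.4% without it. Il2rb was found in 30.9% and 35.6% of islet IGRP- cells with an Il2rg UMI and in 30.2% and 35.2% of those without one. These are descriptions of cells of 1 library, with no test. They take cells of all clone sizes together, and both Ifngr1 and Ifngr2 differed with clone size, as given below.

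The islet groups differ in clonal expansion, which bears on the comparison between them. Clones were told apart by the nucleotides of both CDR3 regions, among cells with exactly 1 productive α and 1 productive β chain. Clones of 5 or more cells held 1172 of 2992 and 1804 of 5483 such cells of islet IGRP- libraries, but 642 of 673 and 1140 of 1191 of islet IGRP+ libraries. With both groups cut to cells of such clones, Il7r stood at 32.0 and 53.3 CPM in islet IGRP- and at 8.38 and 18.6 CPM in islet IGRP+ cells. Il12rb2 stood at 4.33 and 7.84 CPM and at 2.43 and 2.31 CPM, and Ifngr2 at 2.94 and 1.18 CPM and at 0 and 0.329 CPM, the last from 0 and 2 UMIs. The islet groups did not overlap for these genes, and how many of all genes did not overlap was not counted. The islet IGRP- values of Ifngr2 rest on 19 and 11 UMIs. The differences were smaller than over all cells, with log2 fold changes of -1.57 (SE 0.35, edgeR adjusted p = 0.922) for Il7r and -1.28 (SE 0.50, edgeR adjusted p = 0.933) for Il12rb2, and Ifngr2 was under the filter on low counts. In this cut edgeR called 0 of 9 members tested and 2 genes in all. An unadjusted p under 0.05 was found for 4 of the 9 members and for 393 of all 10507 genes. With the round as a block, an alternative chosen after the data were seen, Il7r (log2 fold change -1.56, edgeR adjusted p = 0.00149) and Il18rap (-0.81, edgeR adjusted p = 0.0437) were called lower. In that fit 118 of all 10507 genes were called lower and 30 higher.

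The difference between tissues was also read within clones found in both. These clones held 632 and 1134 islet IGRP+ cells and 1375 and 1445 spleen cells. In them Il7r was at 6.93 and 18.3 CPM in islets and at 302 and 384 CPM in the spleen (log2 fold change -4.63, SE 0.41, edgeR adjusted p = 0.00678). Il21r was at 328 and 565 CPM in islets and 118 and 126 CPM in the spleen (1.97, SE 0.27, edgeR adjusted p = 0.0121). The calls of Il18rap (-2.49), Il18r1 (-2.01), Ifngr1 (1.55) and Il2rb (1.17) also stayed, with edgeR adjusted p of 0.00678 to 0.0260. Of all 9960 genes tested in these clones, 862 were called higher in islets and 760 lower. Il2ra was not called among shared clones (1.26, edgeR adjusted p = 0.124), and Il12rb2 and Ifngr2 were under the filter. In these clones Ifngr2 was at 0 and 0.330 CPM in islets and 0.268 and 0.241 CPM in the spleen, so the groups overlapped, unlike over all cells. Il12rb2 was at 2.50 and 2.97 CPM in islets and 1.34 and 0.483 CPM in the spleen.

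Within islet IGRP- cells, receptor subunits changed with the size of the clone. Clones of 5 or more cells held less Ifngr2, Il7r, Il12rb2, Ifngr1 and Il2rg and more Il2rb and Il2ra than clones seen once, so that 7 of 10 members were called where 45.5% of all 10783 genes tested were (23.9% higher and 21.7% lower). This comparison kept the library as a block, since both classes come from the same libraries. Without the block edgeR called Ifngr2, Il7r and Il12rb2.

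Il7r fell step by step with clone size in both rounds. In Round 1 it was read at 288 CPM in singlets, 110.5 CPM in clones of 2 to 4 cells, 52.1 CPM in clones of 5 to 19 cells and 16.7 CPM in clones of 20 or more cells. The Round 2 levels in the same order were 283, 139, 89.0 and 27.3 CPM. The singlet level was 17.3-fold and 10.4-fold that of the largest class in Rounds 1 and 2. The log2 fold change of clones of 5 or more cells against singlets was -2.91 (SE 0.13, edgeR adjusted p = 2.83e-10), and it was -1.36 already for clones of 2 to 4 cells (edgeR adjusted p = 1.22e-06, a comparison chosen after the data were seen).

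Il12rb2 fell in the same steps, from 33.3 through 9.88 and 5.71 to 3.28 CPM in Round 1 and from 42.4 through 23.4 and 12.5 to 4.45 CPM in Round 2 (log2 fold change of clones of 5 or more cells -2.77, SE 0.17, edgeR adjusted p = 6.98e-09). Ifngr1 fell by less, from 959 through 648 and 577 to 469 CPM in Round 1 and from 1425 through 1089 and 872 to 807 CPM in Round 2 (-0.998, SE 0.05, edgeR adjusted p = 1.63e-09).

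Ifngr2 fell in steps in Round 2 only, and among cells with a paired receptor it was nearly confined to singlets. In Round 1 it was read at 74.8 CPM in singlets and at 0.449, 2.86 and 3.005 CPM in clones of 2 to 4, 5 to 19 and 20 or more cells, the last 3 from 1, 8 and 11 UMIs. In Round 2 it was read at 95.7 CPM in singlets and at 3.18, 1.53 and 0.927 CPM in the larger classes, from 11, 6 and 5 UMIs. Singlets were 46.4% and 54.0% of the cells with a paired receptor and held 41.2% and 48.9% of their UMIs, but 95.8% and 98.2% of their Ifngr2 UMIs (456 of 476 and 1169 of 1191). The whole libraries held 1234 and 2032 Ifngr2 UMIs. Those outside the 476 and 1191 lay in cells to which no clone size was assigned. The ratio of singlets to clones of 2 to 4 cells was 30.1 in Round 2 (95% counting interval 16.7 to 60.4) and 167 in Round 1, where 1 UMI left an interval of 29.8 to 6597. The log2 fold change of clones of 5 or more cells was -5.66 (SE 0.22, edgeR adjusted p = 1.33e-10), and that of clones of 2 to 4 cells was -5.51 (edgeR adjusted p = 6.92e-09). The larger clones and the singlets came from the same libraries, and the part of free RNA in these values was not tested.

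**Figure D3:**
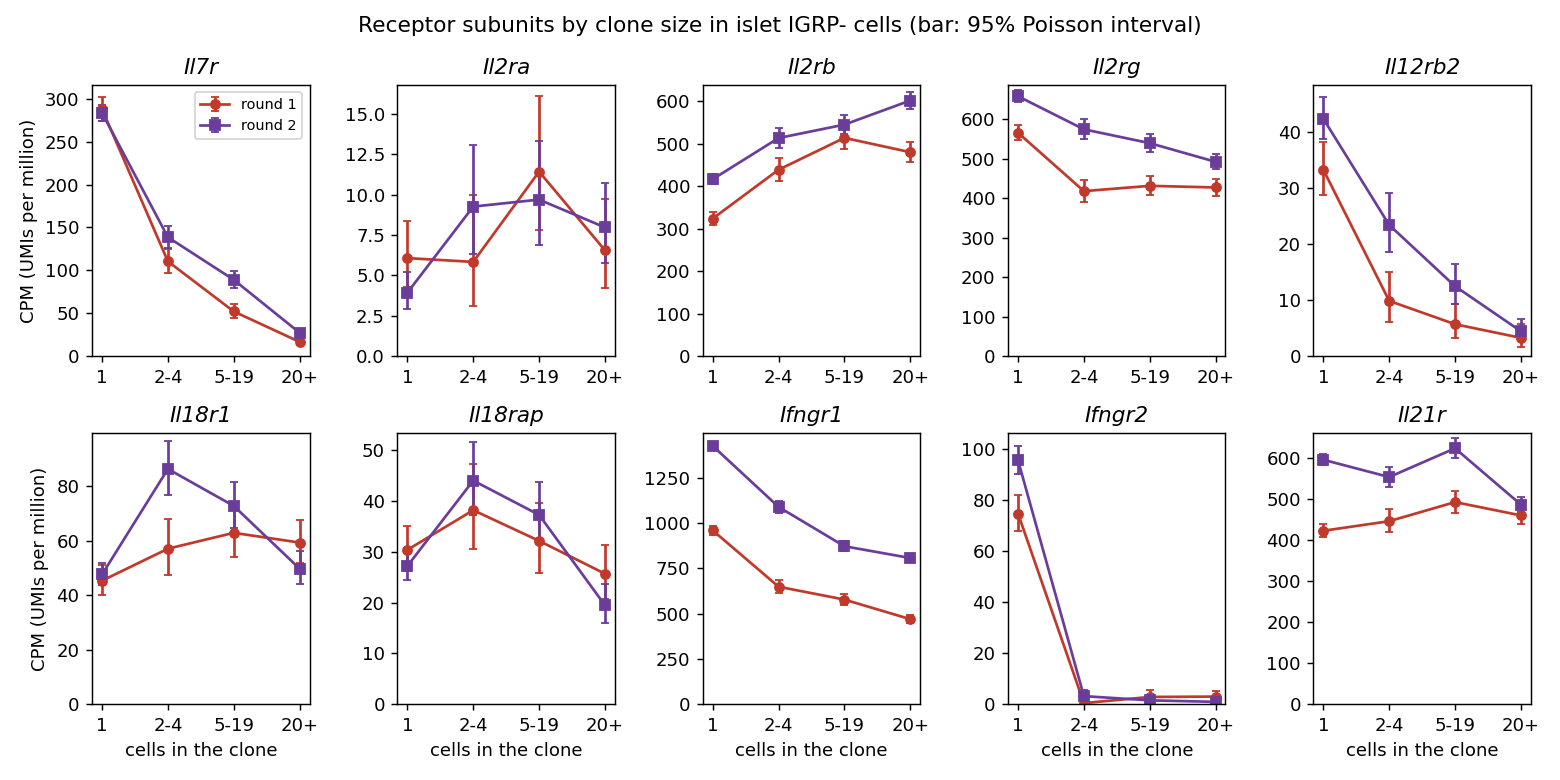
Level of each receptor subunit in islet IGRP- cells by the number of cells in the clone, in CPM on linear axes that start at 0, for Round 1 (red circles) and Round 2 (purple squares), with 95% Poisson intervals. Il7r and Il12rb2 fall over all 4 classes in both rounds, Ifngr2 drops between 1 cell and 2 to 4 cells, and Il18r1 and Il18rap are higher at 2 to 4 cells than at 1 cell.

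Other subunits moved little or upward with clone size. Il2rb rose from 324 CPM in singlets to 439, 514 and 480.5 CPM in Round 1 and from 417 to 514, 545 and 602 CPM in Round 2 (log2 fold change of clones of 5 or more cells 0.37, SE 0.06, edgeR adjusted p = 8.23e-05). Il2rg fell from 565 to 427 CPM and from 658 to 492 CPM between singlets and the largest class (-0.55, SE 0.06, edgeR adjusted p = 4.76e-06). Il2ra was at 6.07 and 3.93 CPM in singlets and 8.67 and 8.70 CPM in clones of 5 or more cells, and its call (0.70, SE 0.26, edgeR adjusted p = 0.0419) was lost under 5 other settings and for clones of 2 to 4 cells (adjusted p of 0.101 to 0.393, from edgeR except the last, from DESeq2).

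Il18r1 and Il18rap did not differ detectably between clones of 5 or more cells and singlets (log2 fold change 0.21, SE 0.11, edgeR adjusted p = 0.154, and -0.21, SE 0.11, edgeR adjusted p = 0.131). In Round 1 Il18r1 went from 45.3 CPM in singlets to 57.0, 62.9 and 59.3 CPM in the larger classes and Il18rap from 30.4 to 38.2, 32.1 and 25.7 CPM. In Round 2 Il18r1 went from 47.6 CPM in singlets to 86.3, 72.7 and 49.7 CPM and Il18rap from 27.2 to 44.0, 37.2 and 19.5 CPM. Il18rap was thus highest in clones of 2 to 4 cells in both rounds, and Il18r1 in Round 2 but not in Round 1. For clones of 2 to 4 cells against singlets, a comparison chosen after the data were seen, the log2 fold change was 0.50 for Il18r1 (edgeR adjusted p = 0.00935) and 0.39 for Il18rap (edgeR adjusted p = 0.0276). For clones of 20 or more cells it was 0.05 (edgeR adjusted p = 0.822) and -0.54 (edgeR adjusted p = 0.0101). Il21r was at 423 and 596 CPM in singlets and 474 and 544 CPM in clones of 5 or more cells, so its CPM moved in opposite directions in the rounds (-0.15, SE 0.06, edgeR adjusted p = 0.0679).

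Among singlets, cells with an Ifngr2 UMI could be set beside those without one, with no test because both were split on the measured gene. They were 314 and 818 cells, with a median of 3683 and 3591.5 UMIs against 3926 and 3814 UMIs in the other singlets. Il18rap was at 7.21 and 5.37 CPM in them and 36.3 and 34.8 CPM in the other singlets, and Il18r1 at 15.2 and 20.9 CPM against 53.0 and 56.9 CPM. Il2rb was at 236 and 381 CPM against 347 and 429 CPM. Ifngr1, the partner chain, was at 1006 and 1438 CPM against 947 and 1421 CPM. Il7r differed less (310.2 and 310.1 CPM against 282 and 274 CPM), and Il12rb2 was at 32.1 and 44.3 CPM against 33.6 and 41.8 CPM.

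Ifngr2, Il7r and Il12rb2 were the members called between the islet groups, so for Ifngr2 and Il12rb2 the 250 bases before the RefSeq start (GRCm38.p6) are given here, with the Ifngr2 window at chr16:91546809-91547058 (plus strand) and the Il12rb2 window at chr6:67376189-67376438 (minus strand). Capitals mark a match of the GAS motif TTCNNNGAA, the letters bound by activated STAT dimers, which was searched on both strands.
Ifngr2: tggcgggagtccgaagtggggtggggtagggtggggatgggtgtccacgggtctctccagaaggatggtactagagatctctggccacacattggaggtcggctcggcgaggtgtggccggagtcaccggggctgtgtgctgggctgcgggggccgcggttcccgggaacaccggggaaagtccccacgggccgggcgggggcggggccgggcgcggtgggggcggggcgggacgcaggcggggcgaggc
Il12rb2: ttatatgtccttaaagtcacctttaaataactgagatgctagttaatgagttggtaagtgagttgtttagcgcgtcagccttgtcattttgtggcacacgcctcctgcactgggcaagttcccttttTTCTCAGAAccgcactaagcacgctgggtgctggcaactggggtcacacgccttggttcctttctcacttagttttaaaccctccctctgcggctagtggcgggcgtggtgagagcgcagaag
The match in the Il12rb2 window starts 123 bases before the start. The motif was found in 8.30% of 32851 windows of 300 bases around gene starts, and among the members with a window it was found for Il12rb2, Il18r1 and Il7r. The forkhead motif GTAAACA (3.65% of windows) was found for Il21r, the ETS motif CCGGAAG (8.86%) for Il2rg and the E-box CACCTG (20.2%) for Il18r1. None of these 4 motifs was in the Ifngr2 window. A match is only these letters in this window.

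The largest islet IGRP- clones were also read one by one. There were 10 clones of 50 or more cells, 3 in Round 1 and 7 in Round 2. Over them Il7r ranged from 0 to 133 CPM with a median of 10.98 CPM, Ifngr2 from 0 to 5.72 CPM with a median of 0 CPM, and Il21r from 367 to 677 CPM with a median of 469 CPM. In 9 of the 10 clones Il7r lay between 0 and 15.8 CPM. The other one, a Round 2 clone of 51 cells singled out after its values were seen, had 133 CPM (35 UMIs, 95% Poisson interval 92.9 to 186). It also had the highest Il18r1 (122 CPM, interval 83.4 to 172) and Il2rg (751 CPM, interval 650 to 863) of the 10. The largest clone, with 232 cells in Round 1, had 5.66 CPM of Il7r (interval 2.28 to 11.7), 37.2 CPM of Il18r1 and 415 CPM of Il2rg. Their receptors are given as CDR3 nucleotide sequences from the deposited contigs, in lower case, since these identify the clones.
Round 2 clone of 51 cells, α: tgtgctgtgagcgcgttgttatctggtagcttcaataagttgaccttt
Round 2 clone of 51 cells, β: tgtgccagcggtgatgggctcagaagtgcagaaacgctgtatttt
Round 1 clone of 232 cells, α: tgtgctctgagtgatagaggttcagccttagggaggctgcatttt
Round 1 clone of 232 cells, β: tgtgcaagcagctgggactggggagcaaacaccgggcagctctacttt
The first clone used TRAV9N-4 with TRAJ4 and TRBJ2-3, and the second TRAV6N-7, TRAJ18, TRBV16 and TRBJ2-2. These cells share a clone and are not replicates. The clone of 232 cells also had 1 cell in the islet IGRP+ and 1 in the spleen library of its round. It held most of the 239 Round 1 islet IGRP- cells whose clone was seen in islet IGRP+ cells (2 cells in Round 2). The 7 members called by clone size were also called without the largest clone of each library.

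**Figure D4:**
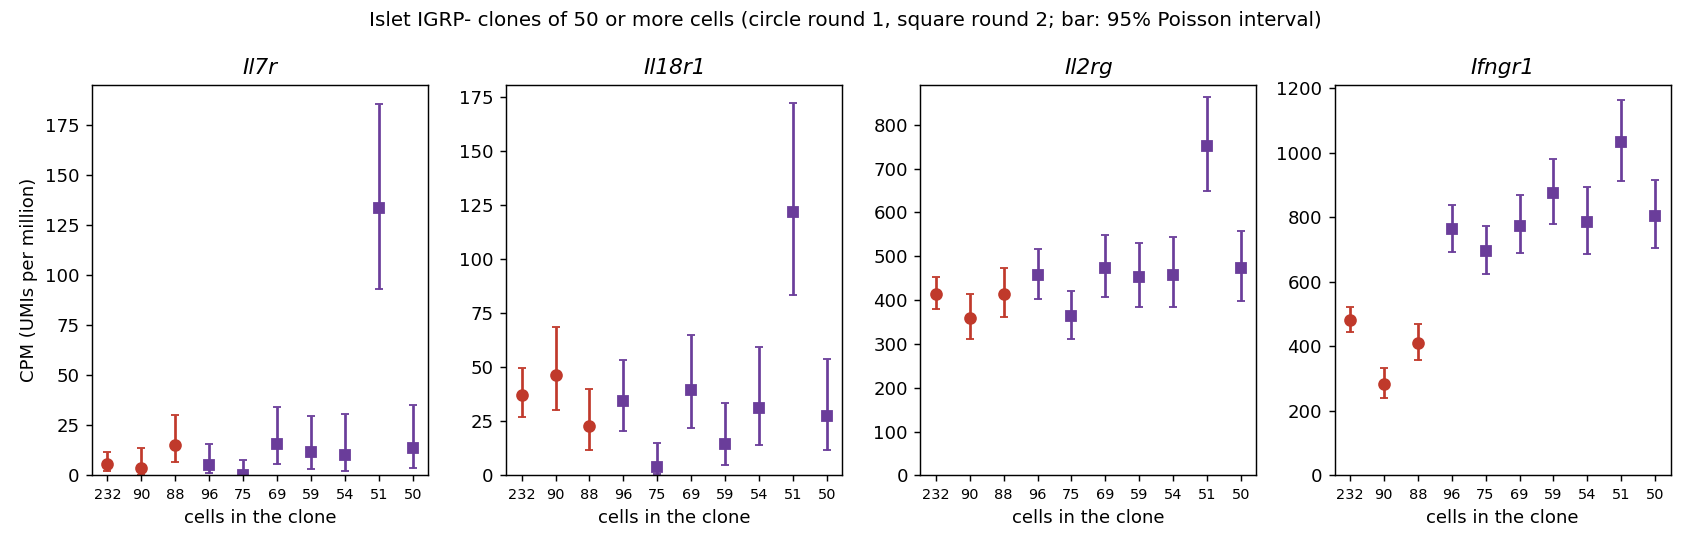
Level of Il7r, Il18r1, Il2rg and Ifngr1 in the 10 islet IGRP- clones of 50 or more cells, in CPM on linear axes that start at 0, with 95% Poisson intervals, ordered by round and size and labelled by the number of cells. The Round 2 clone of 51 cells has the highest point in every panel, and Ifngr1 is lower in the 3 Round 1 clones (circles) than in the 7 Round 2 clones (squares).

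Receptor levels were then compared between 2 gates of islet cells that stand for early and late states of chronically stimulated CD8 T cells. Tcf7 encodes TCF-1, a factor of less differentiated cells, and Havcr2 encodes TIM-3, an inhibitory receptor of more differentiated cells. Cells with UMIs of Havcr2 and Pdcd1 and none of Tcf7 were set against cells with UMIs of Tcf7 and Pdcd1 and none of Havcr2, within each of the 4 islet libraries and with the library as a block. The gates held 148 to 360 and 169 to 1049 cells per library. Of the 9 members tested, 2 were called higher and 2 lower in the Havcr2 gate, where 27.5% of all 8367 genes were called (13.8% higher and 13.6% lower). Ifngr2 was under the filter on low counts.

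Il2rb was higher in the Havcr2 gate in 4 of 4 libraries. It went from 389 to 765 CPM and from 447 to 789 CPM in islet IGRP- and from 250.3 to 667 CPM and from 403 to 795 CPM in islet IGRP+ cells of Rounds 1 and 2 (log2 fold change 0.95, SE 0.07, edgeR adjusted p = 4.16e-08). Il7r was lower in 4 of 4 libraries, with 151 to 10.7 CPM and 156 to 23.3 CPM in islet IGRP- and 17.0 to 0 CPM and 45.0 to 1.26 CPM in islet IGRP+ cells (-3.36, SE 0.21, edgeR adjusted p = 2.84e-09). The last values rest on 0 and 2 UMIs. Even in the Tcf7 gate, Il7r was lower in both islet IGRP+ than in both islet IGRP- libraries. Il18r1 was lower in 4 of 4 libraries (-0.73, SE 0.13, edgeR adjusted p = 0.000461), with 69.8 to 58.2 CPM, 78.5 to 37.2 CPM, 34.95 to 25.3 CPM and 59.4 to 37.0 CPM. Il21r did not pass the test (0.09, SE 0.06, edgeR adjusted p = 0.283). Without the block edgeR called Il2rb and Il7r, while Il18r1 (-0.69, edgeR adjusted p = 0.0664) and Ifngr1 (0.48, edgeR adjusted p = 0.256) were not called. DESeq2 did not call Ifngr1 either (0.48, DESeq2 adjusted p = 0.129). Without islet IGRP+ Round 1, Ifngr1 lost its call (0.34, edgeR adjusted p = 0.0578) and Il12rb2 gained one (-0.85, edgeR adjusted p = 0.0438). Without islet IGRP+ Round 2, Il2rg gained a call (-0.22, edgeR adjusted p = 0.0427).

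Ifngr1 was the member whose difference between the gates itself differed between the tetramer classes. It went from 596 to 722 CPM and from 911 to 974 CPM in islet IGRP- cells, but from 338 to 652 CPM and from 536 to 1007 CPM in islet IGRP+ cells of Rounds 1 and 2. The difference over all 4 libraries was 0.45 (log2, SE 0.11, edgeR adjusted p = 0.00385), and the interaction of gate and tetramer binding was 0.76 (log2, SE 0.10, edgeR adjusted p = 0.000223). For the interaction 1 of 9 members tested was called, where 0.621% of all genes were. Without the library block its edgeR adjusted p was 1.00 and no member was called. In that fit 0 of 9 members had an unadjusted p under 0.05, beside 142 of all 8367 genes. Without islet IGRP+ Round 2, Il2rb was called as well (0.50, edgeR adjusted p = 0.0495).

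**Figure D5:**
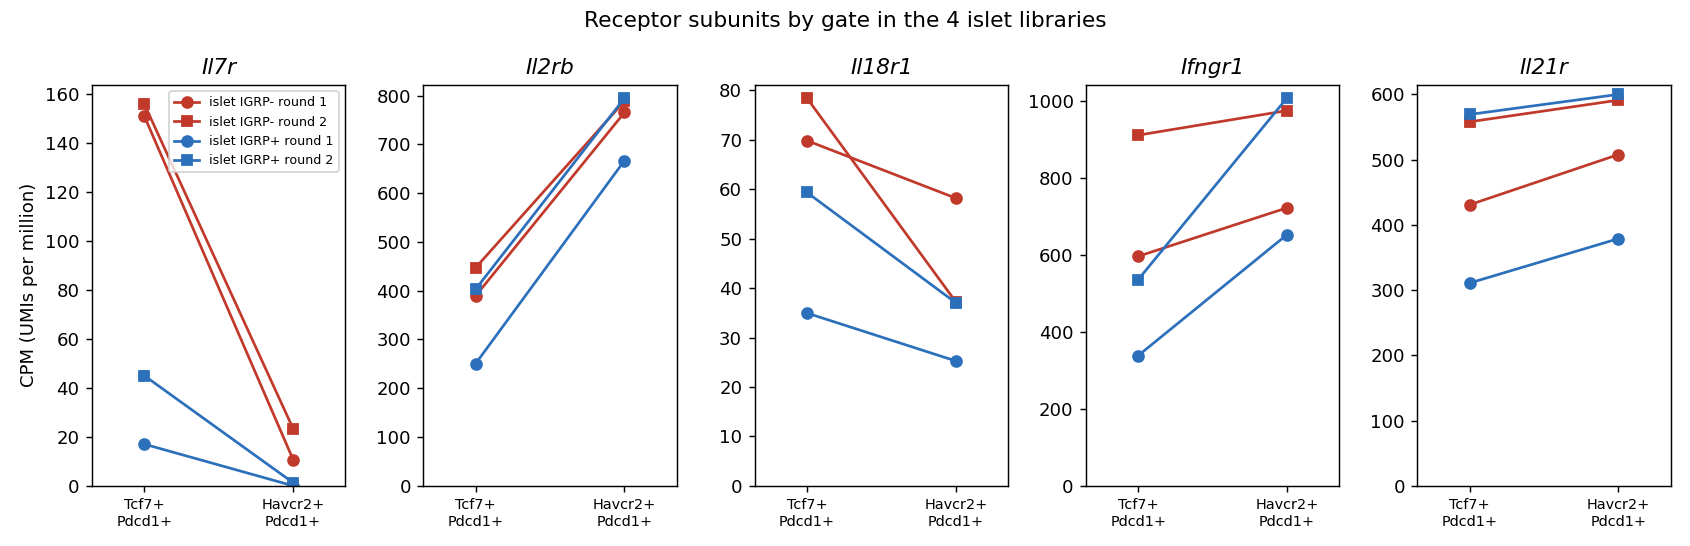
Level of 5 receptor subunits in cells with Tcf7 and Pdcd1 UMIs and no Havcr2 UMI (left) and with Havcr2 and Pdcd1 UMIs and no Tcf7 UMI (right) of the 4 islet libraries, in CPM on linear axes that start at 0. Lines join the gates of a library (red islet IGRP-, blue islet IGRP+, circles Round 1, squares Round 2); Il7r falls and Il2rb rises on all 4 lines, and Ifngr1 rises more steeply on the blue lines.

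Cycling cells, those with UMIs of both Mki67 and Top2a, were 3.95% and 2.35% of islet IGRP-, 8.39% and 4.88% of islet IGRP+ and 0.0284% and 0.412% of spleen cells. Il7r was at 24.4 and 25.9 CPM in cycling islet IGRP- cells and 202 and 199.8 CPM in the other cells. For Il21r these levels were 282 and 317 CPM against 471 and 589 CPM. Il12rb2, Ifngr1, Ifngr2, Il18r1 and Il2rg were also lower in these cycling cells in both rounds. Il18rap was higher in both, and Il2ra and Il2rb moved in opposite directions in the rounds. Cycling islet IGRP- cells held 9677 and 8833 UMIs a cell, against 4323 and 4427 in the others. Among islet IGRP+ cells that were not cycling, Il7r was at 11.3 and 20.7 CPM, Il12rb2 at 2.46 and 3.29 CPM and Ifngr2 at 0.615 and 0.411 CPM. The Ifngr2 values rest on 3 UMIs in each library.

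Other genes of the same pathways were counted over lists. An unadjusted edgeR p under 0.05 between the islet groups was found for 1982 of all 11277 genes, and for 7 of 13 further receptor subunits tested. Of these 13, 2 were called lower and 0 higher in islet IGRP+ than in islet IGRP- cells, where 1.19% of all genes were called (1.04% lower and 0.151% higher). Il6st, the gp130 signaling chain, was at 23.3 and 29.6 CPM against 55.2 and 60.9 CPM (log2 fold change -1.14, SE 0.14). The other was Il6ra, at 0.850 and 2.00 CPM against 16.8 and 21.5 CPM (-3.71, SE 0.30), which lay under the level set for naming and is named after its values were seen. Of 11 JAK and STAT genes edgeR called 0 between the islet groups, with 2 of 11 at an unadjusted p under 0.05. Of 10 feedback inhibitors and targets, 2 were called lower: Socs1, an inhibitor of JAKs, at 44.7 and 67.8 CPM against 117 and 145 CPM (-1.23, SE 0.18), and Irf1, a target of IFN-γ signaling, at 112 and 155 CPM against 271 and 345 CPM (-1.22, SE 0.18). Of 5 IL-18 receptor adaptors and 3 ligand genes tested edgeR called 0, with 0 of 5 and 2 of 3 at an unadjusted p under 0.05.

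Against the spleen, islet IGRP+ cells were called higher for 4 and lower for 4 of these 13 receptor subunits, where 26.6% of all genes were called (13.7% higher and 12.9% lower). Il4ra, the IL-4 receptor α chain, was at 57.5 and 98.2 CPM against 20.7 and 26.3 CPM in the spleen (log2 fold change 1.81, SE 0.22). Il10rb, a chain of the IL-10 receptor, was at 51.2 and 64.3 CPM against 106 and 129 CPM (-0.93, SE 0.15). Of the JAK and STAT genes, Stat3, Stat4 and Stat5a were called higher and none lower, and Stat3, which signals for IL-21 and IL-6 family receptors, was at 563 and 945 CPM against 89.8 and 130.3 CPM (2.86, SE 0.31). Of the 10 feedback inhibitors and targets, 4 were called higher and 4 lower. Bcl2, a survival gene downstream of IL-7, was at 39.5 and 31.3 CPM against 226 and 171 CPM (-2.40, SE 0.34). Irf1 was at 112 and 155 CPM against 281 and 316 CPM (-1.08, SE 0.18). Ifng was at 76.7 and 82.6 CPM against 372 and 257 CPM (-1.92, SE 0.29), and Xcl1, a chemokine gene, at 632 and 610 CPM against 64.1 and 66.0 CPM (3.35, SE 0.22). In islet IGRP- cells against the spleen, 4 of the 13 subunits were called higher and 3 lower, 4 of the 11 JAK and STAT genes higher and 0 lower, and 4 of the 10 inhibitors and targets higher and 3 lower, where 22.4% of all genes were called.

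Clones of 5 or more islet IGRP- cells differed from singlets for 11 of the 13 further receptor subunits, 6 higher and 5 lower, where 45.5% of all genes were called (23.9% higher and 21.7% lower). Without the library block 997 genes in place of 4909 were called over all. Il6ra, the IL-6 receptor α chain, was at 29.7 and 34.1 CPM in singlets and 3.71 and 3.11 CPM in these clones (log2 fold change -3.42, SE 0.21). Il4ra was at 227 and 283 CPM and at 97.5 and 107 CPM (-1.48, SE 0.08), and Il10ra, the ligand-binding chain of the IL-10 receptor, at 22.8 and 19.2 CPM and at 69.0 and 70.4 CPM (1.60, SE 0.10). Irf1 was at 401 and 503 CPM in singlets and 150.3 and 162 CPM in the larger clones (-1.70, SE 0.07), and Socs3, an inhibitor of gp130 signaling, at 226 and 362 CPM and at 88.8 and 109 CPM (-1.72, SE 0.09). Ifng rose from 39.4 and 35.1 CPM to 114 and 97.6 CPM (1.34, SE 0.09). In the Havcr2 gate against the Tcf7 gate, 2 of 11 further subunits were called higher and 6 lower, and 2 of 11 JAK and STAT genes higher and 7 lower, where 27.5% of all genes were called (13.8% higher and 13.6% lower).

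The genes most like each member were sought over the summed counts of 91 clones of 20 or more cells in the 6 libraries, as Pearson r of log2(CPM + 10) less the mean of the library, among 3029 genes. The clones of a library share its depth and its mice, and r is given as a description. For Il7r the highest values were Ass1 (0.49), Emb (0.48) and Il2rg (0.47), and for Il2rg they were Cd52 (0.67), Ctsw (0.61) and Emb (0.53). Nkg7, a gene of cytotoxic granules, was most like Il2rb (0.50), followed by Ifngr1 (0.42). Emb (0.59) and Btg2 (0.55) were most like Il18r1, Ccr2 (0.58) and Fxyd5 (0.57) most like Ifngr1, and Dusp1 (0.55) and Junb (0.53) most like Il21r. Il2ra, Il12rb2, Il18rap and Ifngr2 were too low over these clones for this reading.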

How the data were processed

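Single-cell RNA and T-cell receptor libraries (10x 5′ chemistry) were deposited as UMI counts per gene and cell, made by the authors with Cell Ranger (5.0.1 per the file headers), with contigs and UMI counts of each receptor chain. Cells were filtered by the study's limits on genes and mitochondrial share. No doublet caller was run and free RNA was not removed. Counts were summed per library, or per library and class of cells, and tested with edgeR 4.0.16 in R 4.3.3 (quasi-likelihood, TMM scaling, low counts filtered by filterByExpr, Benjamini-Hochberg over all genes tested, threshold 0.05), after the scripts were tested on simulated data. Fitted fold changes use TMM scaling and can differ from CPM ratios. Intervals are 95% (Clopper-Pearson for shares, exact Poisson for levels). The 3-group fit used all 6 libraries without a round term. A round is 1 pool of mice that gave all 3 groups, so the rounds pair the libraries. Deviations from group means correlated at 0.859, 0.874 and 0.821 over 5618 genes. By the study's account the rounds also differed in sequencing kit and read lengths, and only in the later round were RNA and receptor libraries sequenced as a pool. The parts of mice and of sequencing in these correlations were not tested. Clone-size and gate fits kept the library as a block. DESeq2 1.42.0, other scalings, filters, gates, clone rules and left-out libraries were alternatives. The members and lists were chosen with earlier results of these data known, and all members were named. List genes could be named where called, in the same direction in both rounds and at a mean of 20 CPM or more in the higher group. Some list genes that met this rule are not given. Positions are GRCm38 (GENCODE M21). Il2rb had no promoter entry. The clone-size result of the JAK and STAT list is not reported here.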

Additional observations from a re-analysis of the deposited data

Results flagged for a closer look

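The rise of Ifngr1 from the Tcf7 gate to the Havcr2 gate differed between the tetramer classes, by the interaction term of a fit over the 4 islet libraries. The interaction was 0.755 on the log2 scale (edgeR adjusted p = 0.000223), and the change was larger in 2 of 2 islet IGRP+ than in 2 of 2 islet IGRP- libraries. It stayed called without any 1 library and was not called without the library block.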

How the results depend on the processing

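The fit with the round as a replicate block called 7 members between the islet groups in place of 3, added Il2rg in islet IGRP+ cells against the spleen and changed no other call in the 3-group comparisons. Without the replicate block, 3 members in place of 7 were called by clone size, 2 in place of 4 between the gates and 0 in place of 1 for the interaction. Leaving out 1 library gave 0 to 2 members between the islet groups, 5 in place of 9 in islet IGRP- cells against the spleen in each case, and 2 for the interaction without islet IGRP+ Round 2. With only clones of 5 or more cells, 0 members were called between the islet groups. DESeq2 and the fit with no filter on low counts also called Il18rap there (adjusted p = 0.00286 and 0.0127). The cause of these changes was not tested.

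Among all genes, 134 were called between the islet groups, 3442 with the block, 574 by DESeq2, 711 with no filter on low counts, 201 with 200 to 2000 genes in both tissues, 2 with only clones of 5 or more cells, and 0 to 10 without 1 library. In islet IGRP+ cells against the spleen 3004 genes were called, 6215 with the block, 1622 in shared clones and 892 to 1891 without 1 library. In islet IGRP- cells against the spleen these counts were 2530, 6251 with the block and 382 to 686 without 1 library. By clone size 4909 were called, 997 without the block, 2475 by DESeq2 and 3026 for clones of 2 to 4 cells. Between the gates 2298 were called, 617 without the block, 1189 with at least 2 UMIs of each gate gene and 1306 by DESeq2. For the interaction 52 were called, 0 without the block, 87 with no filter, 16 with at least 2 UMIs of each gate gene and 20 to 90 without 1 library.

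The signs that turned belonged to differences not called in either setting, except that of Il18rap by clone size. Between the islet groups Il2ra turned to 0.0050 with DESeq2 size factors, 0.0052 with DESeq2, 0.044 without cells of more than 1 productive β chain, and ranged from -0.18 to 0.16 without 1 library. Ifngr1 turned to 0.060 in clones of 5 or more cells, or 0.075 with the block too, a fit chosen after the data were seen, and Il21r to 0.016 with 200 to 2000 genes and, without 1 library, ranged from -0.44 to 0.098. In islet IGRP- cells against the spleen Il2rg turned to -0.069 with no upper limit on genes and -0.31 in clones of 5 or more cells, and ranged from -0.031 to 0.090 without 1 library. Il18rap turned to 0.39 for clones of 2 to 4 cells. For the interaction, Il18r1 ranged from -0.32 to 0.47 and Il21r from -0.045 to 0.11 without 1 library. With 2 libraries a group, precision rests on few libraries, and genes near 0 such as Il2ra and Ifngr2 outside islet IGRP- cells rest on few UMIs.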
